A study of Rattus norvegicus with 4 samples.

Results

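The open chromatin around the Egr2 locus of the rat was examined as 354 regions on chromosome 20, out of 58879 regions in the whole series. A region is the stretch covered by peaks that share at least 1 bp across the 4 peak lists, and the 354 lie wholly between positions 15000000 and 30000000 of the rn6 build, the interval that holds Egr2. They were chosen by position alone, and 0 regions crossed either border. The purpose was to learn whether the presence or the strength of open regions near this locus differs between the groups more than it does in other stretches of the same length.

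Egr2, also called Krox20, is a zinc finger transcription factor that Schwann cells need to form and keep myelin around peripheral axons. Its level falls after nerve injury, when Schwann cells turn to a repair state in which c-Jun is active. An antisense RNA made from the Egr2 promoter is the agent expressed here. ATAC-seq reads open chromatin, because a transposase inserts sequencing adapters where DNA is accessible.

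Primary rat Schwann cells from sciatic nerve, grown with serum, forskolin and heregulin, were infected for 48 h at 2 units of virus per cell. The Lenti-AS group (2 libraries) carried the Egr2 antisense RNA and the Lenti-GFP group (2 libraries) the GFP control virus, with 100000 cells per library. By the methods of the study the vectors also differ in the fluorescent protein of their backbone, which cannot be told apart from the antisense RNA. The Lenti-AS insert copies sequence of the Egr2 promoter, so DNA of the virus and of that promoter cannot be told apart in the lists. The cells were measured in bulk, so fewer cells with an open site and less opening per cell cannot be told apart either. The labelled cell type was not checked, since peaks were not assigned to genes.

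Lenti-GFP replicate 1 stood apart in depth: its genome-wide background per bp was 2.38 times that of Lenti-GFP replicate 2, against 1.06 and 1.41 times in Lenti-AS replicates 1 and 2. The lists held between 35646 and 54289 peaks. Absolute read numbers were not analysed here.

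The Egr2 promoter is shown first because the antisense RNA takes its origin from it. The RefSeq sequence of the 250 bases before the start of Egr2 (GRCr8 build, minus strand, read 5′ to 3′) carries 1 match to the CArG box, the binding sequence of serum response factor, and 1 match to the core of the cyclic AMP response element TGACGT, the latter on the other strand. Capitals mark both.

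Egr2 promoter: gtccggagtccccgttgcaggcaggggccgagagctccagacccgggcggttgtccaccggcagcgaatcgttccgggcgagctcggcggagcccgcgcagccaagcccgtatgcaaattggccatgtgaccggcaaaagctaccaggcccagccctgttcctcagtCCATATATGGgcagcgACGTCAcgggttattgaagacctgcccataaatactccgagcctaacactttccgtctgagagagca

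Both strands were searched, and the matches do not overlap. Of 33469 rat promoters of this length, 1.50% hold a CArG box and 6.95% hold TGACGT. No match to the AP-1 motif TGANTCA or to the EGR motif GCGNGGGCG was found in these 250 bases, against 6.34% and 4.29% of promoters with a match. In the same annotation Egr2 lies between Ado and Nrbf2, followed by Jmjd1c and Reep3. These names come from another build than the peaks. An rn6 annotation was not used here, so no peak was assigned to Egr2 or to its neighbours.

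**Figure D1:**
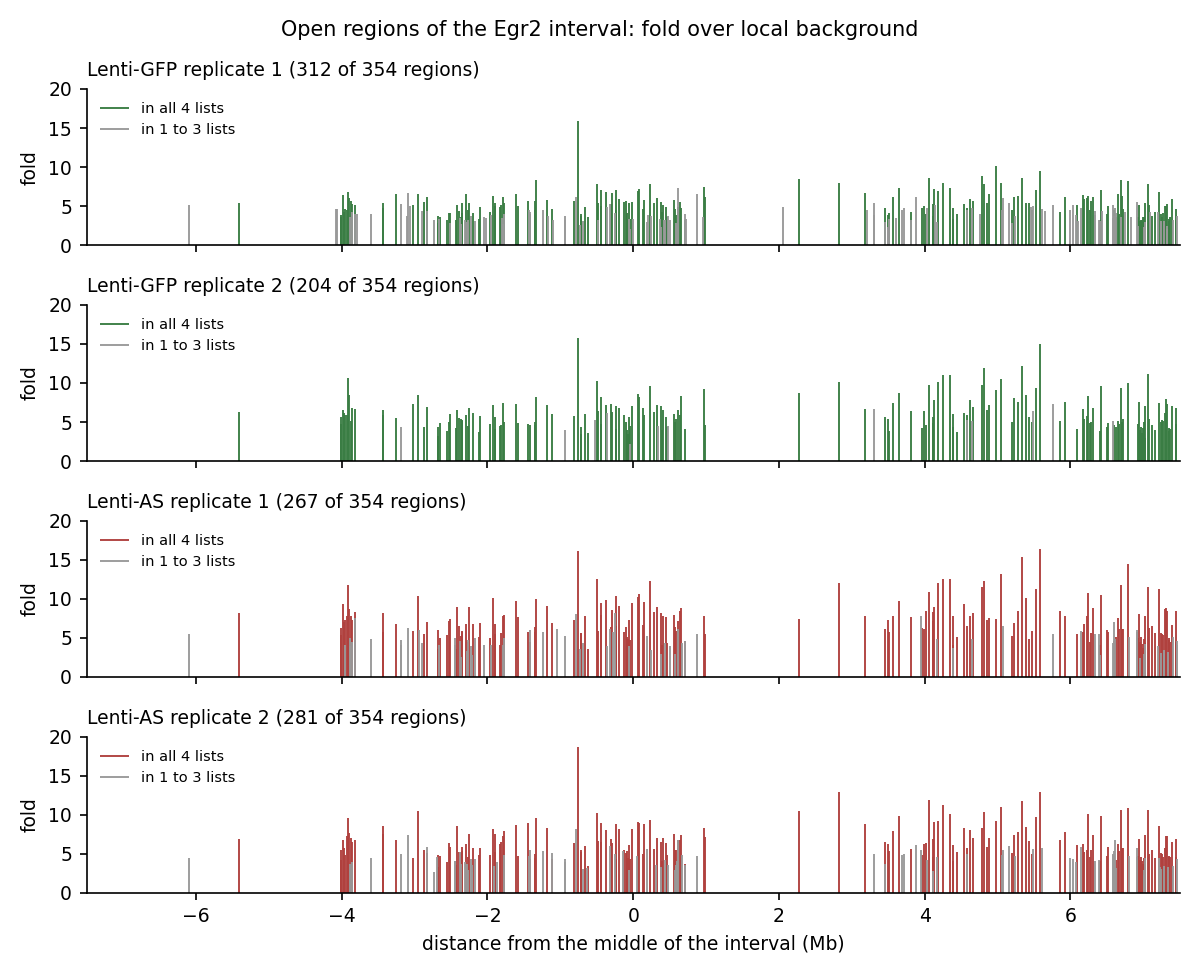
The 4 panels show, for each library, the fold over local background of the regions found in its list against the distance from the middle of the interval in Mb. Coloured lines are the 191 regions found in all 4 lists and grey lines are regions found in fewer; the tallest line in every panel but that of Lenti-AS replicate 1 is the region 759 kb before the middle, and the wide gaps are the stretches without a region.

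Open regions were spread unevenly over the interval. Counted in bins of 1 Mb, the first 3 bins from 15 Mb held 0, 1 and 1 regions, while the bins from 18 Mb to 24 Mb held between 20 and 49. The bin from 24 Mb to 25 Mb held 2 regions, and the last bin, from 29 Mb to 30 Mb, held the most with 67. The 3 longest stretches without a region in any list were chr20:15000000-16409925, chr20:17092142-18417737 and chr20:23491862-24552993, of 1410 kb, 1326 kb and 1061 kb. Chromosomes 1 to 20 held 193 stretches above 1 Mb between neighbouring regions.

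In width, spacing and summit position the regions resembled those of the series. Their median width was 561 bp, against 566 bp over chromosomes 1 to 20, and the median gap to the previous region was 16.2 kb against 16.4 kb. Another region lay within 5 kb for 110 of the 354 (31.1%, against 31.1%). For the 191 regions in all 4 lists, the summits of the 4 libraries fell within a median of 88 bp of each other, against 82 bp. Fold is the summit pileup of a peak over its local background. Ranked by fold within each list, 17 of them (8.90%) had a mean percentile of at least 90, against 8.41% of all such regions, and 8 (4.19%) lay under 10, against 8.10%. These are descriptions, and no test was made of them.

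**Figure D2:**
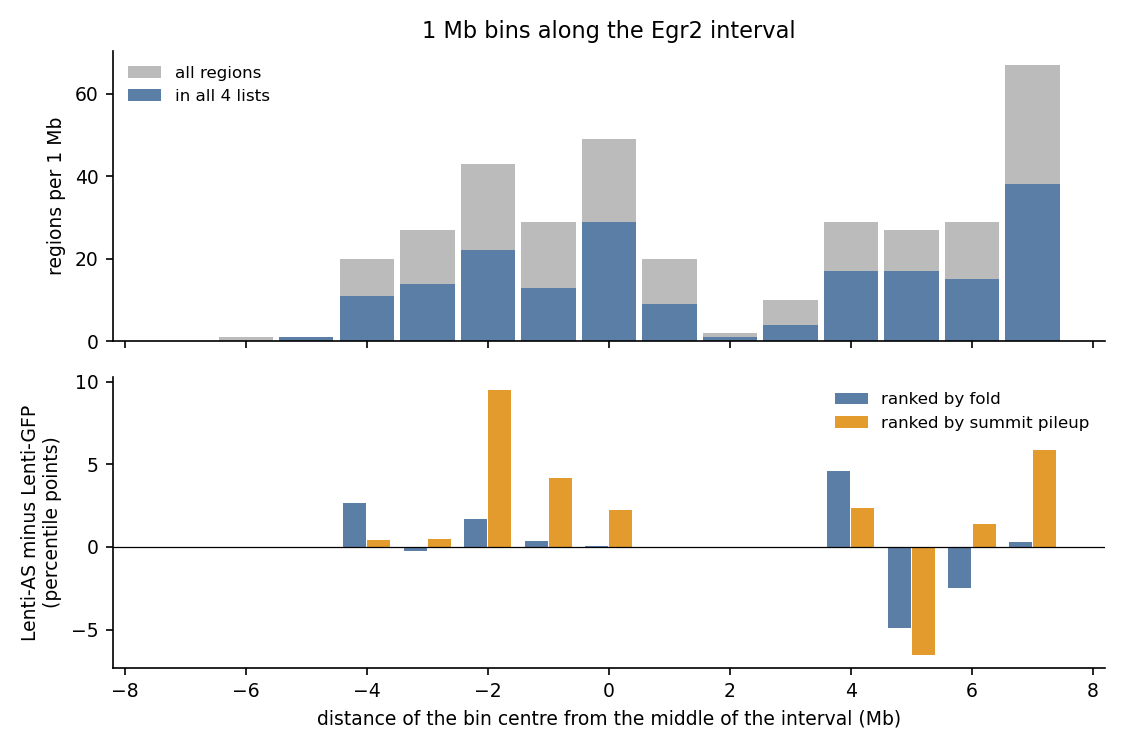
The upper panel counts the regions in each 1 Mb bin of the interval, with those in all 4 lists in blue. The lower panel gives, for the 9 bins with at least 10 such regions, the mean percentile in Lenti-AS minus that in Lenti-GFP, by fold and by summit pileup; the bin at 27 to 28 Mb is lowest by both.

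Presence was compared first. The interval held 313 peaks in Lenti-GFP replicate 1 and 206 in Lenti-GFP replicate 2, against 269 and 284 in Lenti-AS replicates 1 and 2. The Lenti-AS libraries thus lay between the Lenti-GFP libraries. The difference of the means was 17.0 peaks, 276.5 ± 10.6 for Lenti-AS against 259.5 ± 75.7 (SD, 2 libraries in either group), and the two-sided exact permutation test gave p = 1. It became -36.5 without Lenti-GFP replicate 2 and 70.5 if the other control library was omitted, replicate 1.

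As a share of the list, the interval took 0.577% and 0.578% of the peaks in Lenti-GFP and 0.621% and 0.616% in Lenti-AS. Here the groups did not overlap. The mean difference was 0.0412 percentage points (0.618% ± 0.00379 against 0.577% ± 0.000962; SD, 2 libraries in either group), and the exact two-sided permutation p was 0.33, the smallest that 4 libraries allow. With the lists cut to the same length the difference was 0.0182 percentage points. The ratio of the mean shares of the full lists was 1.07. Among 163 windows of 15 Mb on chromosomes 1 to 20, a comparison added after seeing the data, it ran from 0.769 to 1.10, and 8 windows had a higher ratio than the interval.

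By lists, 191 of the 354 regions (54.0%) were found in all 4, as were 54.0% in the whole series. A further 47 were found in 3 lists, 43 in 2 and 73 in 1. Lenti-GFP replicate 1, the deepest library, alone held 43 of the last (12.1% of the regions, against 14.9% in the whole series), and 39 regions were missing from Lenti-GFP replicate 2 alone. Regions in fewer lists were narrower and weaker: the median width was 298 bp for those in 1 list and 782 bp for those in all 4, and the median percentile of fold within the list was 19.5 and 59.9.

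Regions found in both Lenti-AS lists and in no Lenti-GFP list numbered 10 (2.82%, against 1.8% of all regions). The opposite pattern was met by 1 region (0.282%, against 1.21%). Both counts depended on the lists used. Lenti-AS-only regions numbered 49 without Lenti-GFP replicate 1 (15.7%, against 13.8% of all regions), 26 without Lenti-AS replicate 1 (7.6%, against 4.84%) and 22 without Lenti-AS replicate 2 (6.51%, against 4.56%). Lenti-GFP-only regions numbered 44 without Lenti-GFP replicate 2 (12.5%, against 16.2%) and 3 if Lenti-GFP replicate 1 was omitted (0.958%, against 1.95%). They numbered 4 and 6 if Lenti-AS replicate 1 or 2 was omitted (1.17% and 1.78%, against 2.11% and 3.52%). With the lists cut to the same length there were 6 Lenti-AS-only regions (2.21%, against 2.83%) and 4 Lenti-GFP-only regions (1.48%, against 2.54%), so both shares then lay under those of all regions.

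The strongest of the 10 was chr20:26450356-26451050, with folds of 7.76 and 5.52 in Lenti-AS replicates 1 and 2. The next were chr20:29414579-29415182, with folds of 5.75 and 5.77, and chr20:29301417-29301736, with folds of 5.17 and 4.73. Further down came chr20:23168682-23169067, with folds of 4.39 and 4.84, and chr20:20047799-20048142, with folds of 5.04 and 4.13. The other 5 had folds between 2.21 and 4.32. In mean percentile of fold within their lists the 10 ran from 0.401 to 61.3. Of the 10, 4 lay in the last 1 Mb of the interval, the bin with the most regions (67 of the 354).

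The Lenti-GFP-only region was chr20:22460127-22460792, 39.5 kb from the middle of the interval. Its fold was 2.02 in replicate 1 and 2.18 in replicate 2, a mean percentile of 0.274, so it was among the weakest peaks of both lists. Its summit pileup, the number of fragments stacked at the summit, was nevertheless 97 and 55, over local backgrounds of 47.6 and 24.6.

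To compare presence with other windows, the percentage of all regions of chromosomes 1 to 20 found in a list was subtracted from the percentage of the 354 found there. This relative presence was -3.61 and -1.54 percentage points in Lenti-GFP replicates 1 and 2, and 2.96 and 2.25 in Lenti-AS replicates 1 and 2. Both Lenti-AS libraries lay above both Lenti-GFP libraries. The difference was 5.18 percentage points (2.60 ± 0.503 against -2.57 ± 1.46; SD, 2 libraries in either group; two-sided exact permutation test, p = 0.33, the smallest possible), and omitting any single library gave values from 4.07 to 6.21.

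In absolute size this difference took place 55 of the 163 windows. In 12 windows Lenti-AS exceeded Lenti-GFP by more, and over all windows the difference ran from -17.3 to 8.96 with a median of -1.23. By absolute size larger differences in presence were thus common, but only those 12 windows exceeded the interval in its own direction. With the lists cut to the same length the difference was 2.03 and the place 113.

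The number of regions in a window moved with this difference (Spearman's rho 0.798 across the 163 windows, which share the 4 libraries and are not independent). With 354 regions the interval had place 69 by number. After removal of the linear trend on log2 of the region number, a step chosen after seeing the data, 5.38 percentage points were left, which was place 14 of 163, with 6 windows higher.

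The other complete windows of chromosome 20 lay on the same side, and the 205 regions past 45 Mb, where no complete window is left, on the opposite side (-2.51 percentage points). The window from the chromosome start to 15 Mb differed by 8.96 percentage points, the highest value of all windows, and the window from 30 Mb to 45 Mb by 5.32. The interval minus the first of these gave a difference between groups of -3.79 percentage points (exact two-sided permutation p = 0.67), and minus the second -0.139 (exact two-sided permutation p = 1). Chromosome 20 as a whole had a difference of 5.77 percentage points, the highest of the 20 chromosomes, so the interval lay slightly under the value of its own chromosome.

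**Figure D3:**
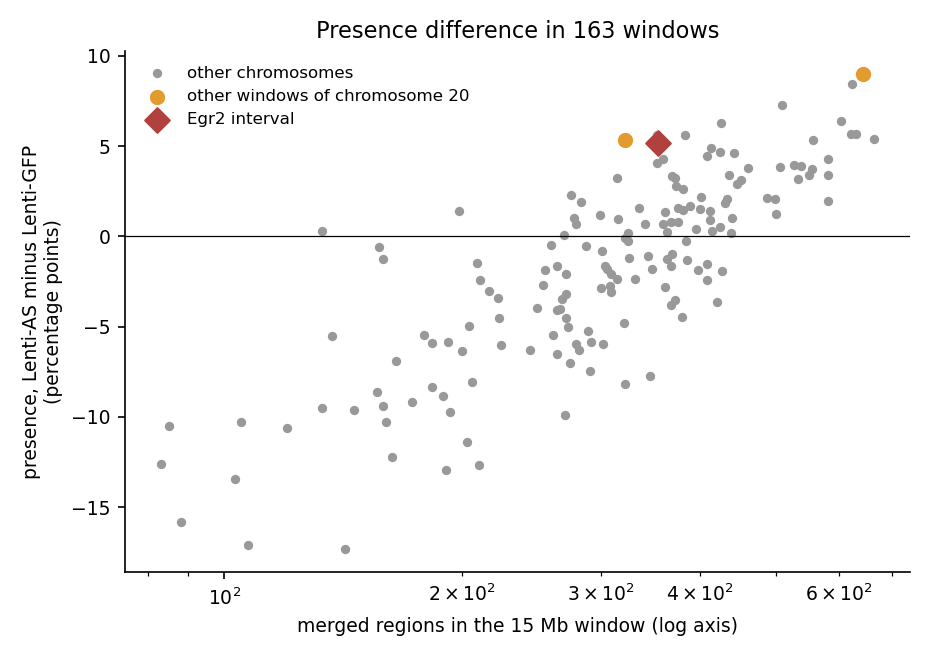
Each point is a 15 Mb window of chromosomes 1 to 20, with its number of regions on a log axis against the difference in relative presence, Lenti-AS minus Lenti-GFP, in percentage points. The diamond is the Egr2 interval at 5.18, and the orange points are the windows of chromosome 20 on either side of it, at 8.96 and 5.32.

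Strength was then compared by rank, since fold depends on depth. Fold, the summit pileup over the local background of the same library with 1 added to each, was turned into a percentile within each list over the 31191 regions of chromosomes 1 to 20 found in all 4 lists. The mean percentile of the 191 shared regions of the interval was 51.6 and 49.1 in Lenti-GFP replicates 1 and 2 and 50.6 and 50.8 in Lenti-AS replicates 1 and 2. Both Lenti-AS values lay between the Lenti-GFP values, and all were near 50, the mean of all regions. The difference was 0.35 percentile points (50.7 ± 0.108 against 50.4 ± 1.82; SD, 2 libraries in either group; two-sided exact permutation test, p = 1), less than the 2.57 between the Lenti-GFP libraries. It turned to -1.24 without Lenti-GFP replicate 2 and to -0.15 without Lenti-AS replicate 2, and was 1.66 if Lenti-GFP replicate 1 was omitted.

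By absolute size this was place 134 of 163 windows, where the differences ran from -3.32 to 3.13. Omitting Lenti-GFP replicate 1 or 2 gave place 48 or 63. Of the 191 regions, 101 (52.9%) ranked higher in Lenti-AS, against 52.2% of all shared regions, and the median difference was 0.14 against 0.32 percentile points.

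Ranking by summit pileup, which does not divide by the local background, gave a larger difference. The mean percentiles were 45.4 and 44.9 in Lenti-GFP replicates 1 and 2 and 47.2 and 48.1 in Lenti-AS replicates 1 and 2, so that both Lenti-AS libraries lay above both Lenti-GFP libraries. The difference was 2.54 percentile points (47.7 ± 0.636 against 45.1 ± 0.306; SD, 2 libraries in either group; two-sided exact permutation test, p = 0.33, the smallest possible), at place 54 of 163, with 13 windows higher. By pileup 122 of the 191 regions (63.9%) ranked higher in Lenti-AS, against 51.2% of all shared regions.

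Local background moved with the pileup. At the summits of the shared regions its median, in multiples of the genome-wide background, was 2.59 and 2.61 in Lenti-GFP replicates 1 and 2 and 2.84 and 2.77 in Lenti-AS replicates 1 and 2, while over chromosomes 1 to 20 it was 3.04 and 3.17 against 3.33 and 3.18. The part of background in the difference by pileup was not tested. The pileup difference also followed the number of regions across windows (rho 0.749). Above that trend the interval kept 2.79 percentile points, place 15 of 163.

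**Figure D4:**
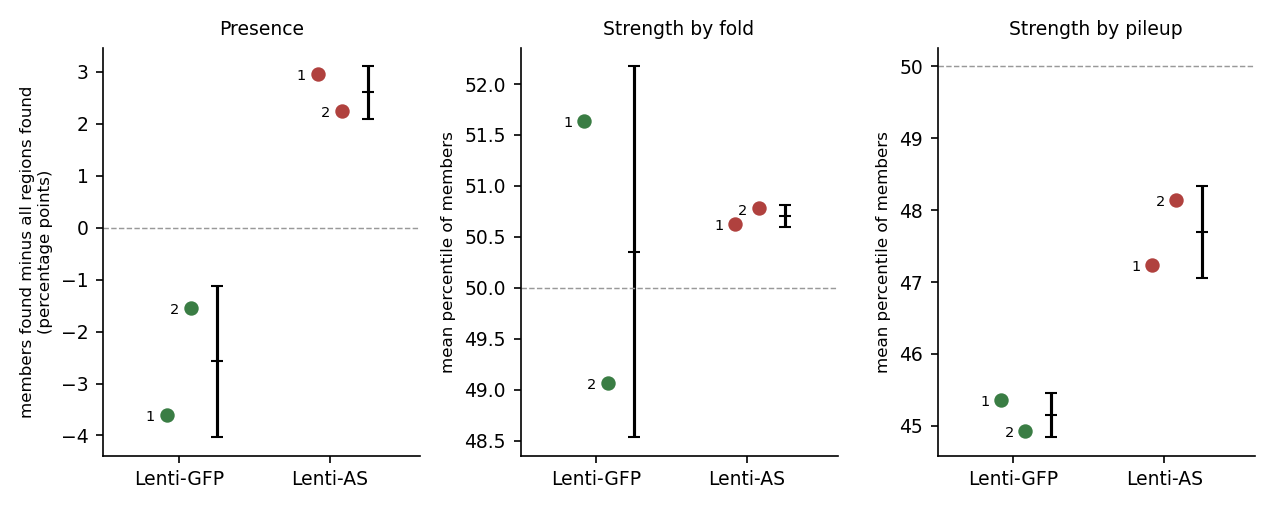
Points are the 2 libraries of each group, numbered by replicate, and the bars at their right give the mean ± SD. The panels show the relative presence of the 354 regions and the mean percentile of the 191 shared regions by fold and by pileup; dashed lines mark the value of all regions, and the groups overlap only in the panel by fold.

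Set beside the window at the chromosome start, which includes the rat MHC, the interval ranked higher by fold in every library, by between 5.68 and 9.40 percentile points. By pileup it ranked lower in every library, with differences between -7.10 and -10.6, and by −log10 p likewise, between -0.83 and -4.20. The difference between groups of this contrast was 2.04 percentile points by fold and -1.53 by pileup (exact two-sided permutation p = 0.33 and 0.67), so its direction depended on the value ranked. On omission of a single library the difference by fold ran from 0.42 to 3.01. Against the window from 30 Mb to 45 Mb the difference between groups was 1.13 by fold and 1.85 by pileup (exact two-sided permutation p = 0.33 for both).

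Single regions were then tested in limma, using normal scores of the rank by fold. The fit held all 46625 regions found in 2 or more lists, 281 of them in the interval, and the 73 regions found in 1 list were not tested. At an adjusted p under 0.05 (Benjamini-Hochberg over all 46625) 0 regions of the interval were called higher and 0 lower in Lenti-AS, against 0% of all regions in each direction. The lowest adjusted p in the interval was 0.374. At an unadjusted p under 0.05, 11 (3.91%, against 2.49%) were higher and 6 (2.14%, against 3.08%) were lower. The higher ones include Lenti-AS-only regions, among them chr20:26450356-26451050 and chr20:29414579-29415182, whose absence from Lenti-GFP was scored as the lowest rank. That count thus partly repeats the comparison of presence. A separate limma fit to regions of all 4 lists gave 11 higher (5.76%, against 3.87%) and 6 lower (3.14%, against 4.8%) at this threshold. Ranking all 46625 regions by −log10 p gave 19 higher (6.76%, against 4.48% of all regions) and 8 lower (2.85%, against 4.37%) at an unadjusted p under 0.05. Ranking by pileup gave 17 (6.05%, against 4.16%) and 5 (1.78%, against 5.16%), and limma made 0 calls after adjustment with either. Without Lenti-AS replicate 1, and likewise without Lenti-AS replicate 2, limma called 3 regions of the interval lower (1.16% and 1.2%), in fits that called 352 and 899 regions lower over the series (0.802% and 2.14%). Without either Lenti-GFP library there were 0 calls in the interval.

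Of the 191 shared regions, 41 (21.5%, against 20.7%) had both Lenti-AS libraries above both Lenti-GFP libraries in percentile of fold, and 26 (13.6%, against 18.1%) had both below. By pileup the counts were 66 (34.6%, against 23.3%) and 26 (13.6%, against 22.5%).

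**Figure D5:**
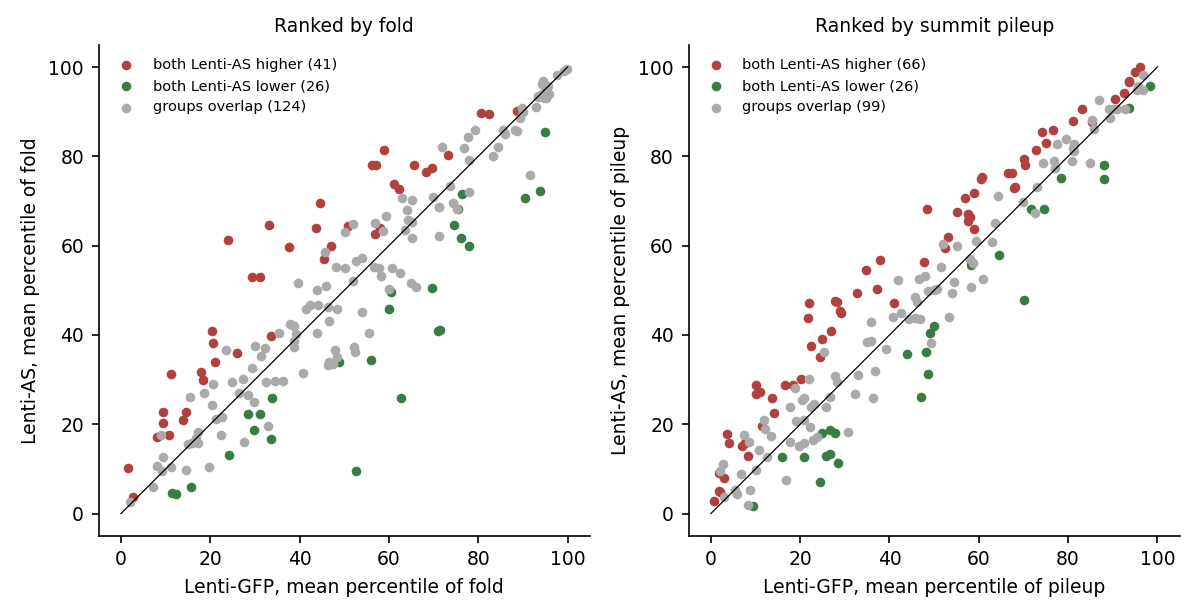
Each point is one of the 191 shared regions, with its mean percentile in Lenti-GFP on the x axis and in Lenti-AS on the y axis, by fold at left and by summit pileup at right. Red points (41 and 66) have both Lenti-AS libraries higher and green points (26 in each panel) both lower; the line marks equal values.

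The regions without overlap between the groups are given in the order of their difference in limma's normal scores. Among those higher in Lenti-AS, the first was chr20:26513820-26514307, with folds of 3.99 and 4.67 in Lenti-GFP and 8.47 and 6.35 in Lenti-AS. Lack of overlap in percentile of fold was the condition for this list, so it is no result about a region in it. The score difference of chr20:26513820-26514307 in limma was 0.87 ± 0.30 (SE), with an adjusted p of 0.799. Second was chr20:28354332-28356092, at 1761 bp also the second widest region of the interval, with folds of 4.29 and 5.18 in Lenti-GFP and 8.47 and 6.78 in Lenti-AS. In limma it reached 0.73 ± 0.29 (SE; adjusted p = 0.873).

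The next in this direction was chr20:22644712-22645360, with folds of 5.81 and 5.85 in Lenti-GFP and 9.57 and 8.77 in Lenti-AS. It lay 145 kb from the middle of the interval. Then came chr20:20729813-20730506, with 5.39 and 4.95 in Lenti-GFP and 7.92 and 7.98 in Lenti-AS, and chr20:19974799-19975358, with 4.16 and 4.97 against 7.13 and 6.33. Of these 5 regions 0 passed limma. A crossed pairing sets Lenti-AS replicate 1 with Lenti-GFP replicate 2 and Lenti-AS replicate 2 with Lenti-GFP replicate 1, which no label supports. With it, limma called the first of these 5 regions, chr20:26513820-26514307, higher (adjusted p = 0.0367) on regions of all 4 lists. That was 0.524% of the 191 against 0.459% of all regions in the fit, which was added after seeing the data. The replicate block on the same regions called 0 of the interval higher, and so did the crossed pairing on all 46625 regions.

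In the opposite direction chr20:29211091-29211602 led, with folds of 6.24 and 4.89 in Lenti-GFP and 4.63 and 3.50 in Lenti-AS (score difference -1.22 ± 0.42 SE, limma adjusted p = 0.801). Its pileups were low, 44 and 19 in Lenti-GFP against 18 and 16 in Lenti-AS. It was followed by chr20:27473948-27474269, chr20:19479196-19479759, chr20:28668320-28669101 and chr20:19674955-19675680, with percentile differences between -21.7 and -36.8. Of these 4, 3 had raw folds that overlapped between the groups, although their percentiles did not. On regions of all 4 lists, limma called chr20:29211091-29211602 lower with the replicate block (adjusted p = 0.0304), 0.524% of the 191 against 0.164%. With the crossed pairing it called that region, chr20:27473948-27474269 and chr20:19479196-19479759 lower (adjusted p = 0.0043, 0.0133 and 0.0352), 1.57% of the 191 against 1.15% of all regions in that fit. In limma's planned fit, without a block, their adjusted p were 0.801, 0.952 and 0.895. Deviations of same-numbered libraries correlated negatively (-0.232 over 46625 regions), so crossing the numbers leaves less residual spread than the replicate block. No label supports that pairing. The crossed pairing on all 46625 regions made 0 calls in limma, with a lowest adjusted p of 0.0862 in the interval.

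The 5 strongest regions were chosen for a high mean percentile of fold over the 4 libraries, which leaves little room for a difference by fold. The first was chr20:21740940-21741662, 759 kb before the middle, with folds of 15.8 and 15.8 in Lenti-GFP and 16.2 and 18.7 in Lenti-AS. In percentile it stood between 99.3 and 99.9 in every library. It was followed by chr20:28077973-28078944, with folds between 9.45 and 16.4, chr20:27832324-27833331, between 8.54 and 15.4, chr20:29284401-29285465, between 8.27 and 14.5, and chr20:26755736-26756692, between 7.98 and 12.6. By percentile of pileup their differences between the groups lay between -7.43, at the first, and 4.22, at chr20:29284401-29285465. The widest region, chr20:28814335-28816127, spanned 1793 bp and differed by 0.85 percentile points.

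The middle of the interval, at 22.5 Mb, was taken as a fixed point, since the position of Egr2 in rn6 was not used here. The nearest shared region was chr20:22483578-22484358, with folds of 5.52 and 7.07 in Lenti-GFP and 9.46 and 8.15 in Lenti-AS. Its percentiles were 61.9 and 69.4 in Lenti-GFP and 78.9 and 77.3 in Lenti-AS, without overlap, but the score difference of 0.34 ± 0.27 (SE) did not pass limma (adjusted p = 0.999). The next but one, chr20:22447025-22447956, had percentiles of 59.0 and 45.0 against 55.3 and 48.6, and there the groups overlapped.

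Between them, chr20:22458519-22459926, combined a high pileup with a low fold. Its fold was 3.29 and 4.54 in Lenti-GFP and 4.74 and 4.38 in Lenti-AS, at percentiles of 9.92 and 21.7 against 15.2 and 16.6. By fold the groups overlapped, and the score difference was 0.08 ± 0.34 (SE; limma adjusted p = 0.999). Its summit pileup was 169 and 121 in Lenti-GFP and 235 and 218 in Lenti-AS. This was the highest pileup of the 191 regions in both Lenti-AS libraries, and it had places 4 and 3 in the Lenti-GFP libraries.

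In percentile of pileup it stood at 95.4 and 96.9 in Lenti-GFP and at 99.97 and 99.90 in Lenti-AS. Its local background was 50.7 and 25.9 fragments in Lenti-GFP and 48.8 and 49.0 in Lenti-AS. In multiples of the genome-wide background of the same library this was 10.2 and 13.04 in Lenti-GFP and 23.3 and 17.5 in Lenti-AS, so the local background too was higher in both Lenti-AS libraries. By −log10 p its percentiles were 64.3 and 79.8 against 88.9 and 86.6, a difference of 15.6 percentile points. The Lenti-GFP-only region chr20:22460127-22460792 begins just after its end, so the Lenti-GFP lists held a separate weak peak there that neither Lenti-AS list held. This neighbourhood was singled out after its values had been seen. Whether it lies at the Egr2 promoter was not determined here.

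Within 100 kb of the middle, a distance chosen after the values were seen, lay 12 regions, 8 of them in all 4 lists. Their differences in percentile of fold ran from -11.4 at chr20:22404884-22405667 to 12.5 at the nearest region. In percentile of fold, chr20:22421521-22421976 and the nearest region alone among the 8 had groups without overlap, both higher in Lenti-AS (against 20.7% of all shared regions), and 0 were lower (against 18.1%). With 8 regions, 2 is close to that background. The folds of the former were 3.39 and 3.41 in Lenti-GFP and 4.84 and 4.45 in Lenti-AS. At chr20:22568580-22569803 the folds were 6.97 and 8.61 against 10.2 and 9.08, and the percentile difference was -1.04. The median fold of the whole list was 4.36 and 5.70 in Lenti-GFP and 6.04 and 5.39 in Lenti-AS.

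Along the interval the direction varied between bins of 1 Mb. By fold, 1 of the 9 bins with at least 10 shared regions had both Lenti-AS libraries above both Lenti-GFP libraries (23.2% of 1303 such bins of chromosomes 1 to 20), and 1 had both below (against 17.1%). The first was the bin from 26 Mb to 27 Mb, at 61.4 and 58.6 in Lenti-AS and 55.7 and 55.1 in Lenti-GFP. The second was the bin from 27 Mb to 28 Mb, at 63.8 and 67.9 in Lenti-AS and 70.7 and 70.8 in Lenti-GFP. These neighbouring bins differed in opposite directions, by 4.57 and -4.90 percentile points.

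By pileup, 5 of the 9 bins were higher in both Lenti-AS libraries (against 35.8%) and 1 was lower (against 29.8%), the bin from 27 Mb to 28 Mb again. By pileup the bin from 20 Mb to 21 Mb differed by 9.46 percentile points on 22 shared regions, that from 27 Mb to 28 Mb by -6.51 on 17, and that from 29 Mb to 30 Mb by 5.87 on 38. In the bin from 22 Mb to 23 Mb, which holds the middle of the interval, the difference was 0.08 by fold and 2.26 by pileup, on 29 shared regions. This bin was therefore not the one in which the groups differed most by either value. In relative presence the bins ran from -24.3 percentage points, in the 2 bins from 24 Mb to 26 Mb with 2 and 10 regions, to 50.7 in the bin from 16 Mb to 17 Mb with 1 region. Among bins with at least 20 regions the range was from -8.60, from 27 Mb to 28 Mb, to 18.2, from 23 Mb to 24 Mb.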

How the data were processed

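ATAC-seq peak lists of 2 Lenti-GFP and 2 Lenti-AS libraries were used, grouped by their titles. By the methods of the study, bowtie2 aligned the reads to rn6, Picard took out duplicates and MACS2 called the peaks. The versions of these tools, the options of MACS2 and any transposase shift are not given in the sources used here. In each deposited list the fold is a ratio of summit pileup to local background, the deposited −log10 p and q values are those of the peak within its own library, and the deposited score is a whole number tied to the q value.

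Peaks sharing at least 1 bp were merged. A summit pileup and background were recovered from the deposited fold and −log10 p, within 0.001 of the latter for 100% of peaks. Windows of 15 Mb were counted from each chromosome start, and those complete and holding at least 10 shared regions (163 of 164) were set in order by absolute difference. Group means were compared with the exact permutation test over 6 assignments (Python 3.11.15, scipy 1.17.1). Scores (normal scores of ranks within a list, absent peaks tied lowest) entered a limma model (limma 3.58.1, R 4.3.3) over all chromosomes, tested before on simulated data. The study ran limma on promoter reads, which were not used here.

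Named regions were, by a written rule, up to 5 strongest, 5 per direction without overlap between groups, 5 found in 1 group only, the 3 widest, the 3 nearest the middle and the 3 longest stretches without a region. The interval, lists and tests were chosen with earlier results of these data known. The labels speak of biological replicates without saying whether cultures or animals were separate, so the p-values refer to these 4 libraries alone. The permutation p can only take values set by the 6 assignments. The p of limma also draws on the variance of all regions tested. Alternatives were lists cut to the same length, a −log10 q of 5 or more, an overlap of 50%, other ranking values, the median, windows of 10 Mb and 20 Mb centred on the same middle, a replicate block and leaving out each library.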

Additional observations from a re-analysis of the deposited data

How the results depend on the processing

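The share of the list and the difference in relative presence kept their direction under every alternative run, but the former was 0.0182 percentage points with lists of equal size. The number of peaks was reversed without Lenti-GFP replicate 2, with values from -36.5 to 70.5 on omission of a single library. The difference in strength by fold was reversed without Lenti-GFP replicate 2 or Lenti-AS replicate 2, with values from -1.24 to 1.66 on omission of a single library. Its contrast with the chromosome start was reversed by ranking on −log10 p (-0.85) and on pileup (-1.53). By fold that contrast ran from 0.42 to 3.01 on omission of a single library. Causes were not tested. Lenti-AS-only regions numbered 6 with lists of equal size, and between 10 and 49 on omission of a library. Lenti-GFP-only regions numbered 2 with a −log10 q of at least 5 (0.578%, against 1.17% of all regions), 2 with an overlap of 50% (0.565%, against 1.51%) and 4 with lists of equal size, and between 3 and 44 on omission of a library. Fewer lists had to meet the rule when a library was omitted.

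The place by presence was 113 of 163 windows at equal list sizes and 14 of 163 above the trend on region number, the latter chosen after seeing the data. Windows of another size, centred on the same middle, hold another set of regions. That of 10 Mb had place 102 of 250 by presence and that of 20 Mb place 22 of 121, and by fold the window of 20 Mb differed by -0.19 percentile points. Ranking on −log10 p moved the place by strength to 58 and ranking on pileup to 54, and omission of a library gave places from 48 to 145.

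The groups share replicate numbers, but the labels do not say what a number shares, and the deviations of same-numbered libraries correlated at -0.232 over 46625 regions. With the replicate block limma called 0 regions of the interval higher and 0 lower. A fit of the replicate block to the regions of all 4 lists alone, added after seeing the data, called 0 higher and 1 lower (chr20:29211091-29211602), beside 2 higher and 52 lower of 31790 regions. The crossed pairing called 0 in either direction, but 1 higher and 3 lower where only regions of all 4 lists were tested, beside 146 and 364 of 31790. The higher call was chr20:26513820-26514307. Fits without 1 library leave 1 library in a group, so only score differences are given, for regions that limma singled out. Without Lenti-AS replicate 1 they were -2.48, -2.22 and -2.775 at chr20:22139465-22139877, chr20:27143542-27144184 and chr20:28262875-28263178. Without Lenti-AS replicate 2 they were -2.469, -1.915 and -2.318 at chr20:25810927-25811185, chr20:27076974-27077360 and chr20:27985837-27986308. These regions, or the wider ones holding them, were found in 3 lists of the full set. In those fits a region found only in both Lenti-GFP lists was tested, but one found only in the lone Lenti-AS list was not. The lone Lenti-AS library is also assumed to vary like the Lenti-GFP libraries. For single regions, 24 of 50 percentile differences moved by more than the replicate spread under another ranking value. Depth differs between libraries, which limits what the absence of a peak can show.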
